A study of Saccharomyces cerevisiae with 3 samples.

Results

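Ribosome biogenesis factors are the proteins that process ribosomal RNA and assemble it with ribosomal proteins, and that leave the finished ribosome. The set described here held 58 genes of the budding yeast Saccharomyces cerevisiae, of 6265 genes measured. They were found by the gene name given in the array tables, which held 57 of them, and NOP56 was found there under its older name SIK1. The set held 26 factors of the small (40S) subunit, 22 of the large (60S) subunit and 7 core proteins of the small nucleolar ribonucleoprotein particles (snoRNPs), which guide chemical changes of ribosomal RNA. The other 3 were RRP5 and HAS1, which serve both subunits, and NOP13, which was not placed.

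Messenger RNA was measured in the haploid laboratory strain BY4742 on 3 one-colour NimbleGen arrays. Control cells grew at 24 °C and atmospheric pressure (0.1 MPa), with no further incubation stated. The other 2 conditions were 5 h at 25 MPa and 24 °C, called high pressure here, and 5 h at 0.1 MPa and 15 °C, called low temperature. For each condition RNA of 3 cultures was pooled onto 1 array, so there is no replicate and no test between conditions was possible. Incubation itself and pressure or cold cannot be told apart in either comparison with the control. The submitters' description field conflicts with the sample titles on strain and temperature, and the groups were taken from the titles. The scan image of the control carries a name suffix that the others lack, and its part in the results was not tested. The 4 alpha-cell marker genes were above mismatch on all 3 arrays, with log2 levels from 8.98 to 13.43, and of 7 a-cell markers only STE2 was above mismatch on all of them. RNA came from whole cultures, so fewer cells making a transcript and less transcript per cell cannot be told apart.

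In a growing yeast cell, RNA polymerase I makes a long precursor RNA in the nucleolus. On this precursor a large particle, the small-subunit processome, forms around the U3 snoRNP and cuts out the 18S RNA of the small subunit. The large subunit matures through a separate chain of helicases, GTPases and scaffold proteins and is exported to the cytoplasm. Genes for these factors are known to be transcribed together, in step with growth, under the TOR and Sfp1 pathways. They are known to be turned down in many stresses.

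Values are log2 levels made by robust multiarray average (RMA), and a log2 ratio is the difference of 2 such levels. A gene past 1.5-fold, a difference size that the study uses, was counted if the brighter of its 2 levels reached the 25th percentile of that array. Each gene had 15 perfect-match probes, each with a mismatch partner. It was taken as above mismatch where the mean of these differences was greater than 0 (one-sided test, 5% level). Of the members, 45 were above mismatch on the control array, 36 under high pressure and 37 at low temperature. Over all rows the share moved the other way, from 54.2% on the control array to 62.4% and 60.5%. The median level over all genes also differed, at 6.43, 6.76 and 6.97 on the 3 arrays. Where the dimmer array was not above mismatch the fold is given with "at least", which marks a dim level and is no guaranteed minimum, and where neither was, no fold is given.

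**Figure D1:**
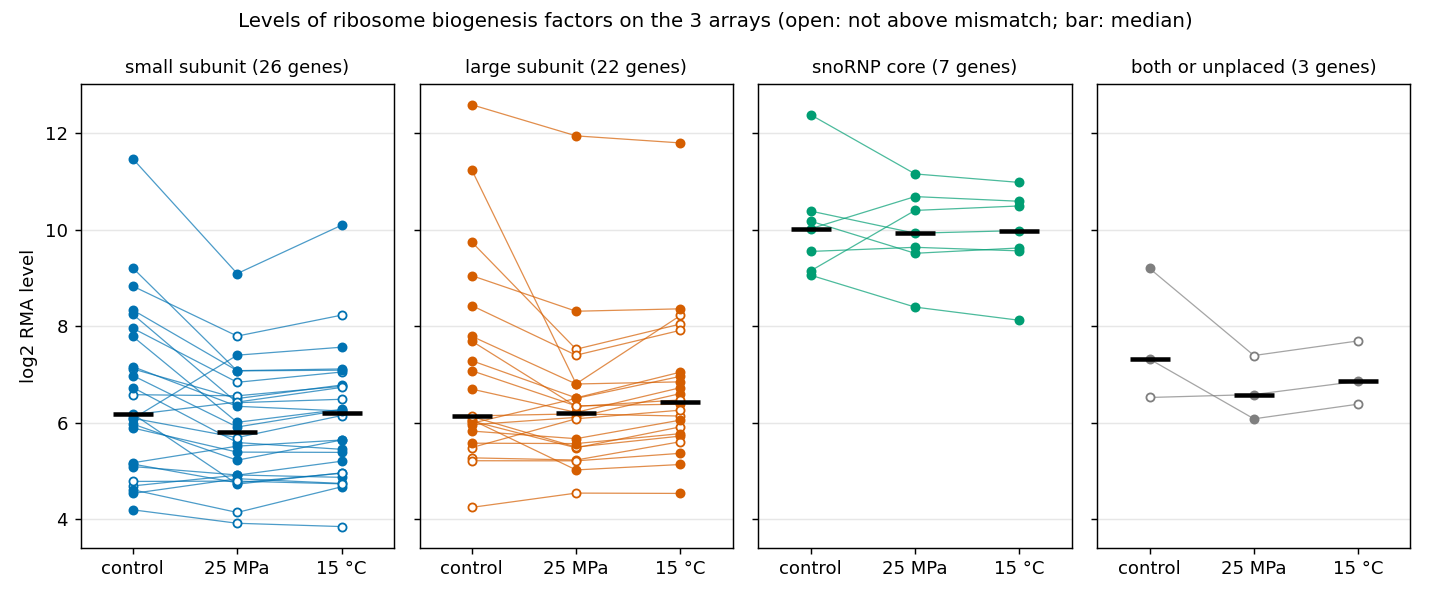
Log2 RMA level (vertical axis) of each of the 58 factors in the control, at 25 MPa and at 15 °C, in 4 panels by class. Filled points were above mismatch, open points were not, lines join 1 gene and black bars are class medians; the 7 snoRNP core genes lie between 8.12 and 12.38 and are filled on all 3 arrays.

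Under high pressure 29 of the 58 factors were lower than in the control and 4 were higher. Another 14 lay inside 1.5-fold and 11 were too dim on both arrays to be counted. Over all genes counted, 12.2% were lower and 28.1% higher in this comparison. The median log2 ratio of the 58 factors was -0.58, against 0.13 over all genes. With each array centred on its own median 34 factors were lower and 2 higher, against 24.9% and 17.1% of all genes. Relative to the median gene the factors stood at -0.71, and this difference lay between -0.72 and -0.39 over 8 settings of scaling, source and trend. Centring moves all genes of an array alike, so settings that differ only by centring could not change it. The lower genes held helicases, GTPases, processome subunits and the methylase of the box C/D particles. The higher genes were 2 small proteins of the box H/ACA particles, 1 processome subunit and EBP2.

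Among small-subunit factors, 13 of 26 were lower under high pressure and 1 was higher, with a median log2 ratio of -0.56. NSR1, a nucleolar protein needed for making the 18S RNA, had log2 levels of 11.47 in the control, 9.09 under high pressure and 10.09 at low temperature. It was brightest on the control array and dimmest under pressure, where its log2 ratio was -2.38 (5.20-fold lower). The mean difference between its perfect-match and mismatch intensities was 2923 ± 678 in the control, 895 ± 233 under pressure and 1902 ± 463 in the cold (SE over 15 probe pairs, which is not a replicate error).

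RRP12, which takes part in export of the subunits from the nucleus, stood at 9.21 in the control, 7.08 under pressure and 7.09 in the cold (log2 level). Its ratio was -2.13 under pressure (4.38-fold lower), and the pressure and cold arrays were nearly level. Its probe-pair difference went from 629 ± 164 in the control to 191 ± 77.1 under pressure and 196 ± 73.4 in the cold (SE, 15 pairs). UTP20, a very large processome protein, was at 6.19, 4.73 and 4.96, a ratio of -1.46 under pressure (2.74-fold lower). Both genes were above mismatch on all 3 arrays.

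The UtpA complex, also called t-UTP, binds the precursor first and is tied to its transcription. All 6 of its members in the set had log2 ratios below 0 under pressure. The 4 that were counted were all lower past 1.5-fold, against 12.2% of all genes. UTP5 had levels of 8.25, 6.42 and 6.49 in the control, under pressure and in the cold, with a ratio of -1.83 under pressure (at least 3.56-fold lower). UTP10, its largest subunit, had 7.79, 6.01 and 6.28, and was 3.43-fold lower under pressure. UTP15 had a ratio of -1.03 (at least 2.05-fold lower). UTP4 had -0.75 (1.68-fold lower). The other members, UTP8 at -0.28 and UTP9 at -0.17, were too dim to be counted. UTP9, the highest of the complex, had levels of 5.09, 4.92 and 4.87.

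UtpB is the next building block of the processome. Of its 5 members in the set 4 were counted, and 3 were lower under pressure, against 12.2% of all genes. UTP21 had levels of 8.34, 7.08 and 7.12 on the 3 arrays and a ratio of -1.26 (2.39-fold lower). UTP18 had 6.73, 5.59 and 5.45 and a ratio of -1.14 (2.20-fold lower), and DIP2, the protein also known as Utp12, had -1.07 (2.09-fold lower). UTP13 was at -0.50, inside 1.5-fold. UTP6, too dim to be counted, had levels of 4.69, 4.92 and 5.21 and a ratio of 0.22.

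The pair of UtpC factors went opposite ways. UTP22 had levels of 7.96, 6.84 and 7.05 and a ratio of -1.12 under pressure (at least 2.17-fold lower). RRP7 had 6.09 in the control, 7.40 under pressure and 7.57 in the cold, a ratio of 1.32 under pressure (at least 2.49-fold higher). Its probes did not exceed mismatch in the control, with a mean difference of -60 ± 108, against 273 ± 92.8 under pressure and 381 ± 150 in the cold (SE, 15 pairs). RRP7 was the highest small-subunit factor in both comparisons with the control.

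Of the Mpp10 complex, which joins the U3 snoRNP, no member passed 1.5-fold in either comparison. IMP4 had log2 levels of 6.10, 5.69 and 6.15, IMP3 6.17, 6.43 and 6.73, and MPP10 4.79, 4.79 and 4.74. IMP3 and MPP10 were not above mismatch on any array. The remaining small-subunit factors lower under pressure were the helicases ROK1 at -0.82 (1.77-fold lower) and DBP8 at -0.61, the latter above mismatch on neither array. RRP9, the U3-specific protein, had levels of 4.61, 4.14 and 4.67 and a ratio of -0.47 under pressure. SOF1 had -0.39, UTP7 -0.02, NOP14 0.31 and UTP14 0.34. Of these 5 only UTP7 was bright enough to be counted, and its probes did not exceed mismatch on any array.

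Among large-subunit factors, 11 of 22 were lower under high pressure and 1 was higher, with a median log2 ratio of -0.59. DBP2, a DEAD-box helicase that acts in ribosome assembly and in messenger RNA turnover, had levels of 11.24 in the control, 6.81 under pressure and 8.23 in the cold. Its ratio under pressure was -4.44 (at least 21.6-fold lower), and it was the lowest member in each of the comparisons. With perfect-match intensities, from which no background is taken, the same ratio was -1.69. With mismatch subtracted it was -1.83, and the cause of the gap to the RMA ratio was not tested. Its probe-pair difference was 3158 ± 921 in the control, 886 ± 812 under pressure and 1674 ± 1303 in the cold (SE, 15 pairs), so on the treated arrays it was not above mismatch.

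Of the 3 GTPases that act on the maturing large subunit, all were lower under pressure, against 12.2% of all genes. NOG1 had levels of 9.75, 7.52 and 8.05, and a ratio of -2.22 (at least 4.67-fold lower). NUG1 had 7.69, 6.34 and 6.48, and -1.35 (at least 2.56-fold lower), and NOG2 had 8.43, 7.40 and 7.92, and -1.03 (at least 2.04-fold lower). Each was above mismatch on the control array and on neither of the others. For NOG1 the probe-pair difference was 916 ± 206 in the control against 127 ± 88.0 and 265 ± 159 (SE, 15 pairs).

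DEAD-box helicases unwind RNA, and 10 members belong to this family. Under pressure 7 of the 9 counted were lower and 0 higher, against 12.2% and 28.1% of all genes. The median log2 ratio of the 10 was -0.75. HAS1, which serves both subunits, had levels of 9.20, 7.39 and 7.70 and a ratio of -1.80 (at least 3.49-fold lower). DBP7 was at -1.04 (2.05-fold lower), DBP3, with levels of 7.29, 6.52 and 7.05, at -0.77 (1.71-fold lower) and DBP6 at -0.73 (1.66-fold lower). MAK5 lay inside 1.5-fold at -0.16 and DBP10 was too dim to be counted. DBP9 was the highest of the family, with levels of 5.96, 6.11 and 6.61 and a ratio of 0.15.

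NOP7 and ERB1, which work as a complex at the large-subunit RNA, were both lower under pressure. ERB1 had levels of 7.79, 6.80 and 6.85 and a ratio of -0.99 (1.98-fold lower), and NOP7 had 6.13, 5.50 and 5.73 and -0.63 (at least 1.55-fold lower). NIP7, at -0.74 (1.67-fold lower), and TIF6, which keeps the subunits apart, at -0.65 (1.56-fold lower), completed the lower large-subunit factors. TIF6 was the brightest member, with levels of 12.59, 11.95 and 11.80. Inside 1.5-fold lay the RNA methylase NOP2 at -0.56, RPF2 at -0.48, the RNA methylase RRP8 at -0.01, RPF1 at 0.04 and NOP12 at 0.52. NOP4 and MAK16, at -0.05 and 0.30, were too dim to be counted. EBP2 was the highest large-subunit factor under pressure at 0.60, with levels of 5.49, 6.08 and 6.26, but its probes exceeded mismatch on no array.

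The snoRNP core proteins were above mismatch on all 3 arrays without exception. The box C/D particles, which place methyl groups on ribosomal RNA and include U3, had lower levels of NOP1 and NOP58 under pressure. NOP1, the methylase (fibrillarin in animals), had levels of 12.38, 11.16 and 10.98 and a ratio of -1.23 (2.34-fold lower). NOP58 had 9.06, 8.40 and 8.12 and -0.66 (1.58-fold lower). NOP56 was inside 1.5-fold at -0.46, with levels of 10.39, 9.93 and 9.98.

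The box H/ACA particles, which turn uridine into pseudouridine, differed among their 4 proteins. NOP10, the smallest of them, had levels of 9.15 in the control, 10.40 under pressure and 10.49 in the cold, a ratio of 1.25 under pressure (2.38-fold higher). NHP2 had 10.02, 10.69 and 10.59, and 0.67 (1.59-fold higher). CBF5, the pseudouridine synthase itself, had 9.55, 9.64 and 9.56, and GAR1 had 10.18, 9.51 and 9.62, with ratios of 0.09 and -0.67 under pressure (1.59-fold lower for GAR1). The probe-pair difference of NOP10 was 824 ± 242 in the control, 2877 ± 818 under pressure and 3915 ± 1142 in the cold (SE, 15 pairs). For NHP2 the count as higher was lost with the arrays centred on their medians, where its ratio was 0.33. Of the factors serving both subunits, RRP5 was lower under pressure with HAS1, at -1.24 (2.36-fold lower), and the unplaced NOP13, with levels of 6.53, 6.59 and 6.86, was at 0.06.

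**Figure D2:**
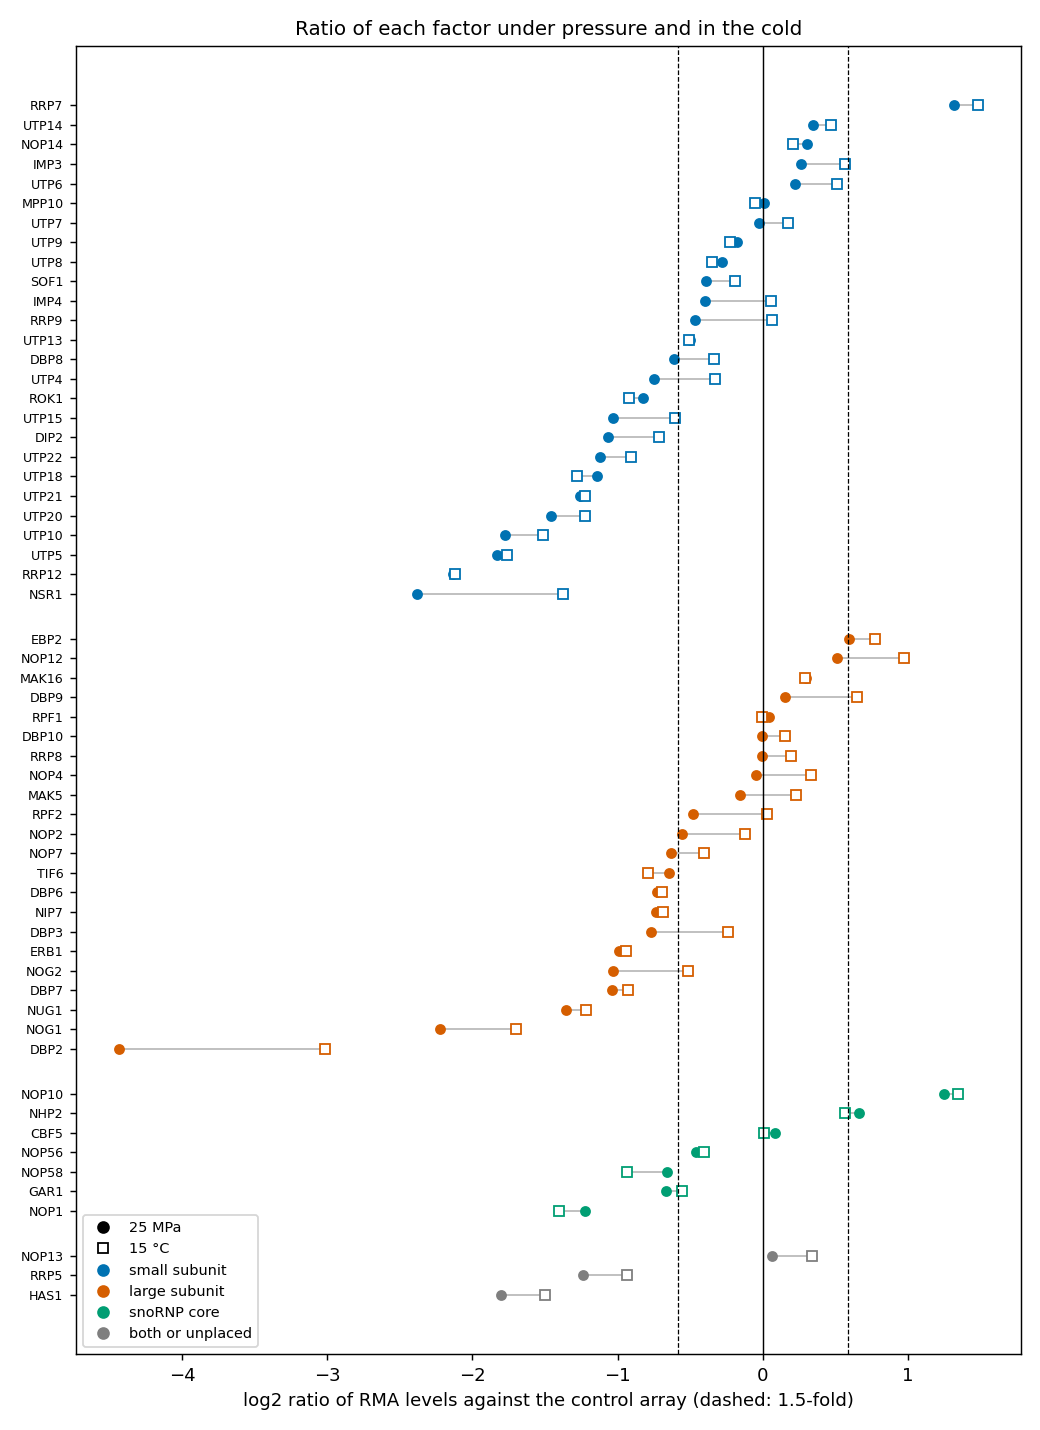
Log2 ratio of RMA levels against the control (horizontal axis) of each factor, as a filled circle for high pressure and an open square for low temperature, grouped and coloured by class; dashed lines mark 1.5-fold. Most circles lie left of 0, DBP2 at -4.44 farthest, while RRP7, NOP10 and NHP2 lie to the right, at 1.32, 1.25 and 0.67.

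At low temperature 23 of the 58 factors were lower than in the control and 5 were higher, with 19 inside 1.5-fold and 11 too dim to be counted. Over all genes counted, 9.60% were lower and 34.7% higher here. The median log2 ratio of the factors was -0.34, against 0.26 over all genes, a difference of -0.60. With the arrays centred 32 factors were lower and 2 higher, against 30.3% and 14.6% of all genes. Relative to the median gene the factors lay between -0.71 and -0.44 over the same 8 settings, where centring again could not change the difference. The median itself was 0.02 with perfect-match minus mismatch intensities, where the median over all genes was 0.73. Both comparisons use the same control array, so its error enters both alike, and the 2 sets of values are given side by side with no measure of their likeness.

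In the cold 11 of the 26 small-subunit factors were lower, 1 was higher and the median log2 ratio was -0.34. RRP12 had a ratio of -2.12 (4.34-fold lower), UTP5 of -1.76 (at least 3.39-fold lower) and UTP10 of -1.51 (at least 2.85-fold lower). NSR1 was at -1.38 (2.60-fold lower), UTP18 at -1.28 (2.43-fold lower), and UTP20 and UTP21 were both 2.33-fold lower. For UTP18 the cold ratio was 0.0026 with perfect-match intensities, although it was above mismatch on all 3 arrays.

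Further members at low temperature were ROK1 at -0.92, UTP22 at -0.91, DIP2 at -0.71 and UTP15 at -0.60, all lower past 1.5-fold. For UTP15 the ratio was 0.41 with perfect-match intensities. UTP4, DBP8 and UTP13 were inside 1.5-fold at -0.33, -0.33 and -0.51, as were IMP4 at 0.06, UTP7 at 0.17 and IMP3 at 0.57. RRP7 was higher by 1.48 (at least 2.79-fold). The dim factors UTP8, UTP9, SOF1, MPP10, RRP9, NOP14, UTP14 and UTP6 ran from -0.35 for UTP8 to 0.51 for UTP6.

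In the cold 8 of the 22 large-subunit factors were lower, 3 were higher and the median log2 ratio was -0.18. DBP2 had -3.02 (at least 8.10-fold lower), which was -0.85 with perfect-match intensities. NOG1 had -1.70 (at least 3.25-fold lower), NUG1 -1.22 (at least 2.33-fold lower), ERB1 -0.94 (1.92-fold lower) and DBP7 -0.93 (1.90-fold lower). TIF6, DBP6 and NIP7 had -0.79, -0.69 and -0.69, and TIF6 had 0.13 with perfect-match intensities.

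The higher large-subunit factors were NOP12, which acts on the 25S precursor and had levels of 5.99, 6.51 and 6.96, at 0.97 (1.96-fold higher), DBP9 at 0.65 (1.57-fold higher) and EBP2 at 0.77, above mismatch on no array. With the arrays centred all 3 lay inside 1.5-fold, at 0.43, 0.10 and 0.23. NOG2, NOP7, DBP3, NOP2, RPF1, RPF2, RRP8 and MAK5 were inside 1.5-fold, from -0.51 for NOG2 to 0.23 for MAK5. The dim factors NOP4, DBP10 and MAK16 ran from 0.15 to 0.33.

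Of the snoRNP core, NOP1 was lower in the cold by a log2 ratio of -1.40 (2.64-fold lower) and NOP58 by -0.93 (1.91-fold lower), while NOP56 was at -0.40. NOP10 was higher by 1.34 (2.54-fold). NHP2, CBF5 and GAR1 lay inside 1.5-fold at 0.57, 0.01 and -0.56. HAS1 was lower at -1.50 (at least 2.83-fold). RRP5 was lower at -0.93 (at least 1.91-fold), and NOP13 was at 0.34.

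The direct comparison of high pressure with low temperature, which leaves the control array out, separated few of the factors. Of the 42 members counted, DBP2 and NSR1 alone passed 1.5-fold by RMA levels, both lower under pressure, so 2 were lower and 0 higher. Over all genes counted, 10.1% were lower and 4.28% higher. The number of lower members was 5 with perfect-match intensities and 15 with perfect-match minus mismatch, where 16.9% and 35.2% of all genes were lower, and ranged from 1 to 15 over 10 alternatives. NSR1 had a log2 ratio of -1.0 (2.00-fold lower) and DBP2 of -1.42, the latter above mismatch on neither array. DBP3 and NOG1 followed at -0.53 and -0.52, inside 1.5-fold, and RRP9, also at -0.53, was too dim to be counted. The highest member was NOP58 at 0.27, and 40 factors lay inside 1.5-fold while 16 were too dim. The median was -0.19, against -0.12 over all genes, and turned to 0.02 with the arrays centred and to 0.08 with centred perfect-match intensities. With the arrays centred 4.34% of all genes were lower and 8.82% higher, and the same number of members, 2, was lower.

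Small-subunit and large-subunit factors were then set side by side. Under pressure their medians were -0.56 and -0.59, a difference of 0.04 that lay between -0.09 and 0.06 over 10 alternatives and so had no settled sign. In the cold the medians were -0.34 and -0.18, a difference of -0.16 that ran from -0.25 to -0.09. Between pressure and cold directly the medians were -0.20 and -0.22. Among the alternatives, centring the arrays could not change a difference between the 2 classes. With 1 array for each condition none of these differences could be tested. More small-subunit than large-subunit members were too dim to be counted against the control, 8 against 3. Of those counted, 13 of 18 small-subunit factors (72.2%) and 11 of 19 large-subunit factors (57.9%) were lower under pressure, against 12.2% of all genes. In the cold 11 of 18 (61.1%) and 8 of 19 (42.1%) were lower, against 9.60% of all genes. Over all members, dim ones included, 13 of 26 and 11 of 22 were lower under pressure, and 11 of 26 and 8 of 22 in the cold. The shares of those counted thus also depend on how many members were too dim. The members within each class spread far more, from -2.38 to 1.32 under pressure for the small subunit and from -4.44 to 0.60 for the large. The 2 classes were alike in gene length, with medians of 1784 and 1802 bp.

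**Figure D3:**
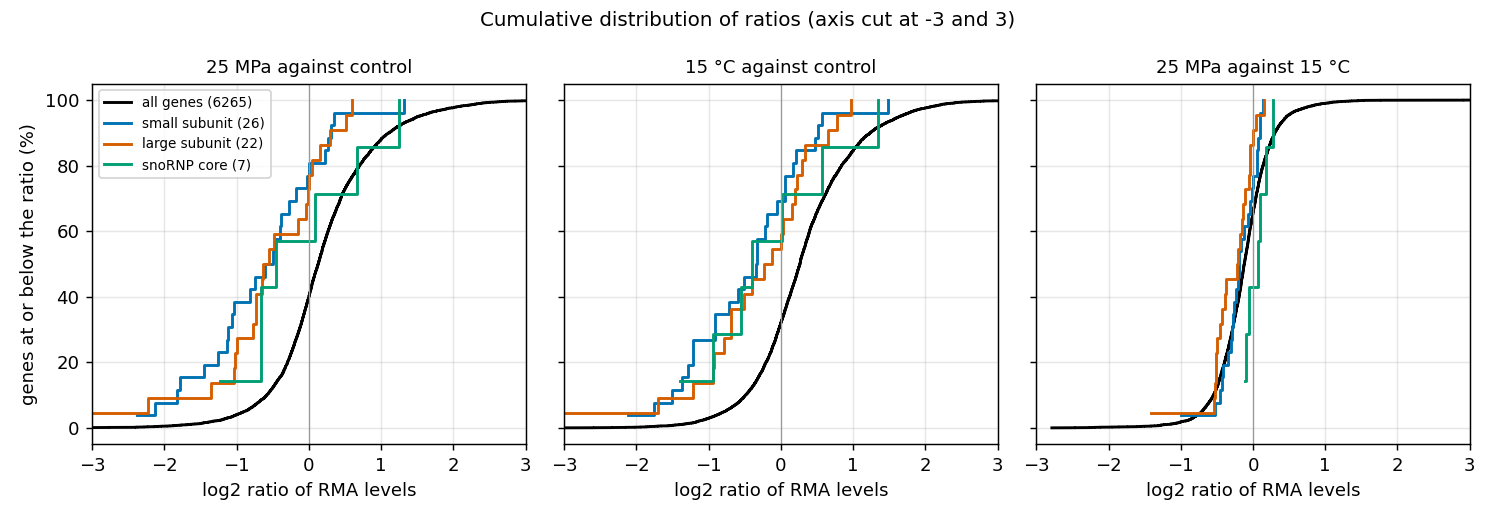
Percentage of genes at or below a given log2 ratio, for all 6265 genes (black) and for the small-subunit, large-subunit and snoRNP core factors, in the 3 comparisons; the axis is cut at -3 and 3. The small-subunit and large-subunit curves run left of the black curve against the control, with medians of -0.56 and -0.59 under pressure against 0.13, and close to it in the direct comparison.

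Length and brightness, which the choice of members did not use, went with the size of the ratios. Among the 20 shortest members, of 177 to 1452 bp, the median log2 ratio was 0.05 under pressure and 0.13 in the cold. Among the 19 longest, of 1993 to 7482 bp, it was -1.03 and -0.71. All genes in the same length ranges had medians of 0.29 and 0.41 for the short range and 0.02 and 0.09 for the long one. Across the 58 members the correlation of the ratio with log2 length was -0.47 in both comparisons with the control (Pearson r). Across the 5762 genes with a known length it was -0.30 and -0.33. These genes share the same 3 arrays and are not independent. With the trend on length removed 28 members were lower and 2 higher under pressure, and 21 and 5 in the cold, with medians of -0.58 and -0.26. Over all genes counted with that trend removed, 14.2% were lower and 26.4% higher under pressure, and 10.3% and 33.7% in the cold. RRP7 and NOP10 then had 1.15 and 1.05 under pressure, and UTP10 and UTP20 -1.55 and -1.17. What part RNA or labelling quality had in the length trend was not tested.

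**Figure D4:**
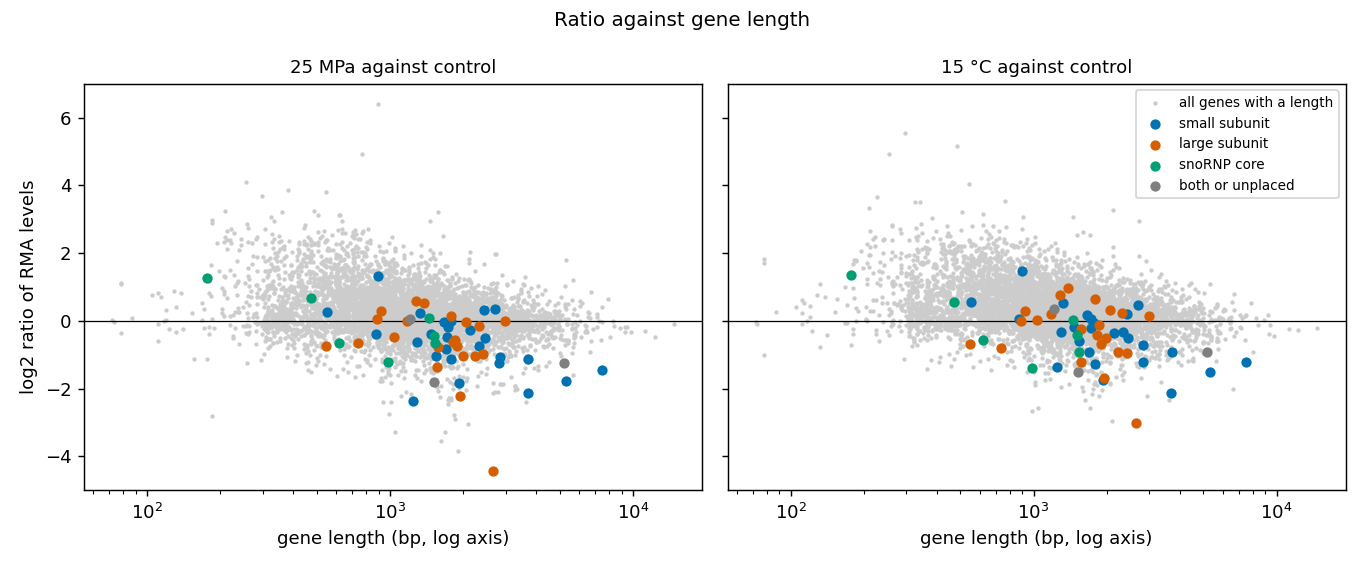
Log2 ratio (vertical axis) against gene length in bp (log axis) for all genes with a known length (grey) and for the factors by class, under high pressure (left) and at low temperature (right). Long factors such as UTP20 (7482 bp, -1.46 under pressure) lie low and the shortest, NOP10 (177 bp), lies high at 1.25.

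Sorted by control level, the 19 brightest members had medians of -1.03 under pressure and -0.91 in the cold, and 15 and 13 of them were lower. All genes in that range of control levels had medians of -0.04 and -0.06. The 20 dimmest members had medians of -0.03 and 0.18, but 11 of them were too dim to be counted. Since the control array is one side of each ratio, its own error also ties its level to the ratio.

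With perfect-match intensities in place of RMA levels, 31 of the 33 ratios past 1.5-fold under pressure were smaller in size and none changed sign. In the cold 27 of 28 were smaller, and UTP15, UTP18 and TIF6 changed sign. The counts of lower members were then 15 under pressure and 9 in the cold, where 5.11% and 2.28% of all genes counted were lower. The median ratio over all genes was 0.15 and 0.41 with these intensities, so the factors stood at -0.39 and -0.44 relative to it.

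**Figure D5:**
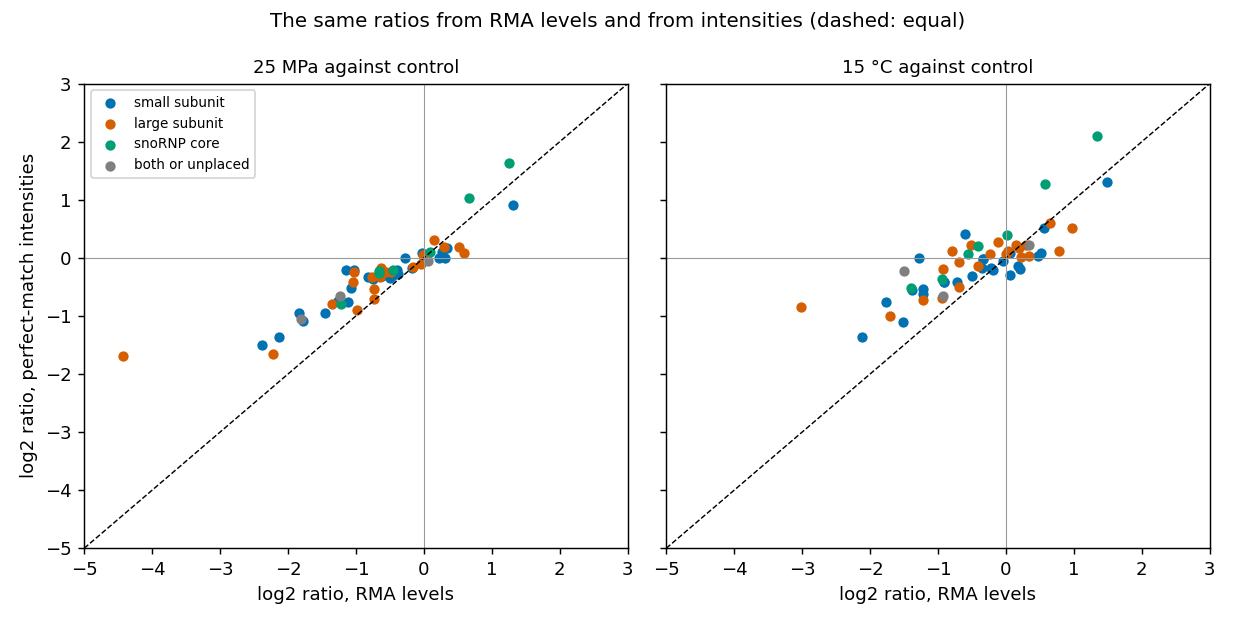
Log2 ratio from perfect-match intensities (vertical axis) against the log2 ratio from RMA levels (horizontal axis) for the 58 factors, under high pressure (left) and at low temperature (right); the dashed line marks equal values. Most lower genes lie above the dashed line, DBP2 at -4.44 by RMA and -1.69 by intensity being the farthest under pressure.

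A further list of 82 ribosome biogenesis genes that are not members was read the same way. In each comparison with the control 20 of them were too dim, which left 62 counted. Under pressure 24 were lower (38.7% of those counted, against 12.2% of all genes) and 6 higher (9.68% against 28.1%), and the median of the 82 was -0.23. In the cold 17 were lower (27.4% against 9.60%) and 11 higher (17.7% against 34.7%). The cold median was -0.09, which turned to 0.02 with perfect-match intensities and 0.16 with perfect-match minus mismatch. Relative to the median gene both values were closer to 0 than those of the 58 members, at -0.36 and -0.35. The lowest under pressure were ARX1, an export factor of the large subunit, at -2.28 (4.86-fold lower), and PWP2, a UtpB subunit, at -2.09 (4.25-fold lower). The export adaptor NMD3 was at -1.95 (3.87-fold lower) and RIX1 at -1.92 (3.80-fold lower), while RSA4, also at -1.92, was above mismatch on neither array. At the other end stood LOC1, 2.30-fold higher, CGR1 at 1.01 (2.01-fold higher) and RSA3 at 0.99 (1.99-fold higher).

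In the cold ARX1, PWP2, NMD3, RSA4 and SDA1 had the lowest ratios of that list, at -1.86, -1.70, -1.46, -1.32 and -1.30. RRP17, too dim to be counted, LOC1 and NOP15 were highest, at 1.49, 1.32 and 1.27. Directly between pressure and cold 6 of the 56 counted were lower under pressure and 0 higher. That is 10.7%, near the 10.1% of all genes, and the count was 1 with the arrays centred and 24 with perfect-match minus mismatch intensities. The lowest were RIX1 at -0.85 (1.81-fold lower), MRT4 at -0.71, KRR1 and UTP23 at -0.67 and EMG1 at -0.64. The highest ratios there were 0.47 for FYV7, 0.35 for SPB1 and 0.30 for UTP25, of which FYV7 and SPB1 were too dim to be counted and above mismatch on neither array.

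RNA polymerase I, whose transcript these factors process, had 5 of 7 subunit genes lower and 1 higher under pressure, with a median of -0.95 (71.4% lower, against 12.2% of all genes). Its second-largest subunit RPA135 had levels of 10.17, 7.76 and 7.84 and a ratio of -2.41, and RPA49 had -1.16. RPA12, 1 of the 5 lower at -0.80, turned to 0.64 with perfect-match intensities and 0.80 with perfect-match minus mismatch. The other lower subunits kept their sign. In the cold 4 were lower (57.1% against 9.60%) and 1 higher, with RPA135 at -2.33 and RPA14 at -1.06. The 137 ribosomal protein genes, all bright enough to be counted, had medians of 0.09 under pressure and 0.32 in the cold, against 0.13 and 0.26 over all genes. Under pressure 5 were lower (3.65% against 12.2% of all genes) and 21 higher (15.3% against 28.1%). In the cold 1 was lower (0.730% against 9.60%) and 40 higher (29.2% against 34.7%). No test of the difference between ribosomal protein genes and the biogenesis factors was possible with 1 array for each condition. With the length trend removed the ribosomal protein medians were -0.09 and 0.07, and their median length was 771 bp against 1709 bp for the factors.

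Of 10 growth regulators, 4 were too dim to be counted in each comparison. Of the other 6, 3 were lower under pressure and 1 in the cold, where 12.2% and 9.60% of all genes were lower, and 0 were higher in either. SCH9, a kinase below TOR, had levels of 8.90, 7.34 and 8.01 and a ratio of -1.56 under pressure and -0.89 in the cold. The repressor TOD6 had -1.10 under pressure and -0.55 in the cold, and the activator SFP1 -0.92 and -0.56, both inside 1.5-fold in the cold. Directly between pressure and cold SCH9 was lower under pressure at -0.67 and TOD6, inside 1.5-fold, was at -0.56.

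The members lay on 14 chromosomes. One pair of members were next neighbours in the RefSeq gene order of assembly R64, RPF1 and GAR1 on chromosome VIII, with ratios of 0.04 and -0.67 under pressure. Another 5 members lay next to a gene of the further list. PWP1 and NOP56 on chromosome XII had -1.0 and -0.46 under pressure, and DBP8 and NMD3 on chromosome VIII had -0.61 and -1.95. UTP9 and RIX1 had -0.17 and -1.92, RSA3 and UTP13 had 0.99 and -0.50, and NOG2 and ESF2 had -1.03 and 0.11.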

How the data were processed

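The deposited log2 levels were made by the authors with RMA and quantile normalization, per the labels; RMA is also named in the submitters' processing notes, with no version. The deposited per-array tables give, per the file headers, mean perfect-match and mismatch intensity over 15 probe pairs and a coefficient of variation, the ratio of SD to mean. The sources used here do not say if all 3 arrays went into 1 normalization. The levels did not share 1 distribution, with medians over all genes of 6.43, 6.76 and 6.97. The 25th percentiles were 5.36, 5.57 and 5.77, in the order control, high pressure and low temperature. RMA can hide or create a shift shared by most genes.

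Rows (6337) were named through RefSeq R64 (1723 by locus tag, 3953 by symbol, 152 by synonym) and rows of a gene averaged, giving 6265 genes. Coordinates are not printed, since the tables use an older annotation than R64, and sequences were not analysed here. A gene was above mismatch where the mean pair difference over its SE passed a t of 1.76 (14 degrees of freedom). Of 83 genes listed as further biogenesis genes 82 were found. The counts describe 3 arrays, and the number of arrays limits their precision. Python 3.11.15, numpy 2.4.6, pandas 2.3.3, scipy 1.17.1 and statsmodels 0.14.6 were used, and the code was tested on simulated data. Lowess trends used a span of 0.4 and intensities a floor of 20.

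Members and lists were chosen with earlier results of these data known. Values are printed for the 12 members with the largest absolute ratio in each comparison with the control, the 5 largest between pressure and cold, and the highest and lowest of each class and complex; every other member is named with a ratio or within a range. Of the further list the 5 lowest and 3 highest are named, and of polymerase I and the regulators the 2 largest, with RPA12 added for its change of sign.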

Additional observations from a re-analysis of the deposited data

How the results depend on the processing

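No paired analysis was possible because each condition has 1 array; for the same reason no array could be left out. Counts are lower then higher, members before the further list. Centring the arrays gave 2 members higher against the control in both comparisons and medians of -0.92 (pressure) and -0.89 (cold); the further list had 37 lower under pressure, 36 and 2 in the cold, and medians of -0.57 and -0.64. Between pressure and cold the medians were 0.023 and 0.051, with 1 of the list lower. Quantile normalization of the gene levels gave 2 members higher in both, medians of -0.78, -0.67 and -0.022 in the 3 comparisons, and for the list 32 and 5 in the cold, 3 lower between pressure and cold, and medians of -0.43 and -0.025. Of all genes counted in this setting, 20.3% were higher under pressure, and 19.6% were lower and 20.1% higher in the cold. Between pressure and cold 5.93% of all genes counted were lower. Perfect-match intensities gave 15 members lower under pressure, 9 in the cold and 5 between the 2, medians of -0.25 and -0.036, and for the list 11 and 3, 10, and 3, with a cold median of 0.020. Centred, a setting chosen after seeing the data, they gave 19 members lower under pressure, 3 higher in the cold, 1 lower between the 2 (median 0.083), and for the list 1 higher against the control in both, 0 lower between the 2, and medians of -0.51 (cold) and 0.15. Perfect-match minus mismatch intensities gave 8 members higher under pressure, 10 in the cold, 15 lower and 1 higher between the 2, medians of -0.34, 0.024 and -0.44, and for the list 16 and 25 higher against the control, 24 and 1 between the 2, and medians of -0.0027 (pressure) and 0.16 (cold). In that setting 47.5% of all genes counted were higher under pressure and 64.1% in the cold. Between the 2, 35.2% of all genes counted were lower and 6.59% higher. Past 2-fold there were 18 members lower and 2 higher under pressure and 12 and 2 in the cold. The list had 12 and 2, 10 and 5, and 0 lower between the 2. Over all genes counted, 5.12% were lower and 14.9% higher past 2-fold under pressure, and 3.76% and 18.8% in the cold. Between the 2, 2.27% were lower. With the length trend removed 2 members were higher under pressure. Counting by mismatch left 1 member lower between pressure and cold, where 9.71% of all genes counted were lower.

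The small-subunit minus large-subunit median under pressure was -0.042 with quantile normalization, -0.039 with perfect-match intensities (centred or not), -0.041 without the length trend, -0.090 with perfect-match minus mismatch, -0.056 by mismatch and -0.018 without the level trend. Between pressure and cold it was 0.13 with perfect-match intensities, centred or not. Single members turned sign with intensities only: UTP15 (0.41 and 0.44 less mismatch), UTP18 (0.0026 and 0.041) and TIF6 (0.13 and 0.13) in the cold, and, with centred intensities, EBP2 (-0.15 under pressure and -0.41 in the cold) and NOP12 (-0.020 in the cold). The cause of these shifts was not tested, except that fewer genes pass a larger fold by construction. Of 441 member values past 1.5-fold recomputed, 351 stayed past it, 81 did not and 9 turned sign.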
